A study of Mus musculus with 6 samples.

Results

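Carnitine carries long-chain fatty acids into mitochondria for oxidation, and a small set of genes makes it, moves it and loads it with acyl groups. The 8 listed here are Bbox1, Tmlhe and Aldh9a1 of carnitine synthesis, Slc22a5 of uptake, and Slc25a20, Cpt1a, Cpt2 and Crat of the mitochondrial shuttle. They were taken by name. Bbox1 was chosen by its lower level in FoxJ1 null tissue on these same arrays, so its genotype difference is given as a description with no test. The other genes were listed for their pathway. Of the 8, 7 had a probe set assigned to 1 gene, each of them a single probe set, and are among the 19938 genes measured. Tmlhe, whose product starts carnitine synthesis, had none and is not analysed here.

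The study measured RNA with Affymetrix whole-transcript arrays in the ependymal layer, the ciliated epithelium that lines the brain ventricles, of postnatal mice. FoxJ1 null brains of postnatal days 1, 7 and 14 gave 1 array each, and wildtype brains of the same days gave 1 array each, so that 3 arrays stood for each genotype. All 6 arrays came from FoxJ1-EGFP tissue, wildtype included, in which laser capture took the domains marked by a fluorescent reporter of the Foxj1 gene. Foxj1 encodes the forkhead transcription factor that switches on the motile cilium programme. The labels do not give the kind of null allele, or whether an array held 1 animal or several, so the spread measured here is that between arrays.

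In carnitine synthesis, trimethyllysine released from proteins is hydroxylated by the Tmlhe enzyme, cleaved, and oxidised by the Aldh9a1 aldehyde dehydrogenase to gamma-butyrobetaine, which the Bbox1 dioxygenase turns into carnitine with the help of iron, ascorbate and 2-oxoglutarate. Cells also import carnitine through the Slc22a5 transporter, OCTN2. Inside the cell, Cpt1a on the outer mitochondrial membrane makes acylcarnitines, the Slc25a20 carrier exchanges them for free carnitine across the inner membrane, Cpt2 returns the acyl group to coenzyme A, and Crat does the same exchange for short acyl groups. In brain, fatty acid oxidation is mainly an activity of glia and of progenitor cells.

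Bbox1 (probe set 10485700, mouse chromosome 2) was far lower in the null tissue at every age. In order of age, from day 1 to day 14, its log2 level was 5.79, 5.80 and 6.28 in FoxJ1 null tissue, against 7.91, 8.27 and 8.29 in wildtype tissue. The groups did not overlap, and the highest null array stood below the lowest wildtype array. Null and wildtype did not overlap for 6.15% of all genes, and Bbox1 was chosen for its decrease, so this is no support. The difference, FoxJ1 null minus wildtype, was largest at day 7, where it reached -2.47, with -2.13 at day 1 and -2.01 at day 14, and averaged -2.20 ± 0.24 (SD over the 3 ages, n = 3 pairs of arrays), which is 4.61-fold lower. As linear intensity in the authors' deposited table, the same probe set had 55.2, 55.7 and 77.7 in the null and 241.1, 309.1 and 313.7 in wildtype. That table is the authors' own list of significant genes from these same arrays, so it repeats the values above and adds no support. It holds 52 of 35557 probe sets, all of them lower in the null at all 3 ages. Bbox1, at position 24, is the 1 carnitine gene among them.

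The files give no detection call, so whether the null level of Bbox1 lies above background cannot be told. Xist was high at 12.35 (null, day 7) and at 12.40 (wildtype, day 1), and it was 5.37 to 5.83 in the remaining tissue, a range that holds the Bbox1 levels of the null at days 1 and 7. The Y-chromosome genes (Uty, Kdm5d, Eif2s3y) had log2 levels of 4.53 to 5.21 where Xist was high, and each probe set has a background of its own. The series title names male mice. Against that title, 1 array of each genotype had high Xist with low Y-chromosome genes, as female tissue has. Without that pair of arrays, and with age as a linear term, the difference of Bbox1 was -2.16.

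The stretch before the RefSeq start of Bbox1 is shown because the gene was low in tissue without a forkhead factor. It covers the 250 bases upstream of the start, chr2:110305726-110305975 on the minus strand of GRCm38.p6, written in the direction of the gene. Capitals mark the match to the forkhead motif GTAAACA, which reads TGTTTAC on this strand.

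Bbox1: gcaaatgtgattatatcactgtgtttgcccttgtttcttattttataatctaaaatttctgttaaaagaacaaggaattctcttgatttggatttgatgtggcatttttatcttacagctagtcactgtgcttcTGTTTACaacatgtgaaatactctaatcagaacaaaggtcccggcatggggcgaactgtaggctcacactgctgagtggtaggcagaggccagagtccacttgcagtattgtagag

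The match spans bases 116 to 110 before the start. It was looked for on both strands, after the sequence had been seen, together with its core TAAACA, which lies inside it. The half-site of RFX factors, other regulators of cilium genes, was looked for as GTTGCC. The longer motif was in 3.17% of 32851 promoter windows of the same length, its core in 3952 of them, and the half-site in 10.4%. Promoters were at hand for 6 of the 8 genes. Bbox1 was the 1 window of these with either forkhead motif, and 0 of the 6 held the half-site. The Bbox1 window was also poorer in G and C, at 39.6% with 2 CpG, than those of Aldh9a1, Slc22a5, Slc25a20, Cpt1a and Cpt2, at 56.8% to 73.6% with 8 to 30 CpG. The median over all windows was 52.4% with 6 CpG. The RefSeq span of Bbox1 reaches further upstream than this start, so other starts are annotated. A match describes the letters of the window and is no evidence of binding.

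**Figure D1:**
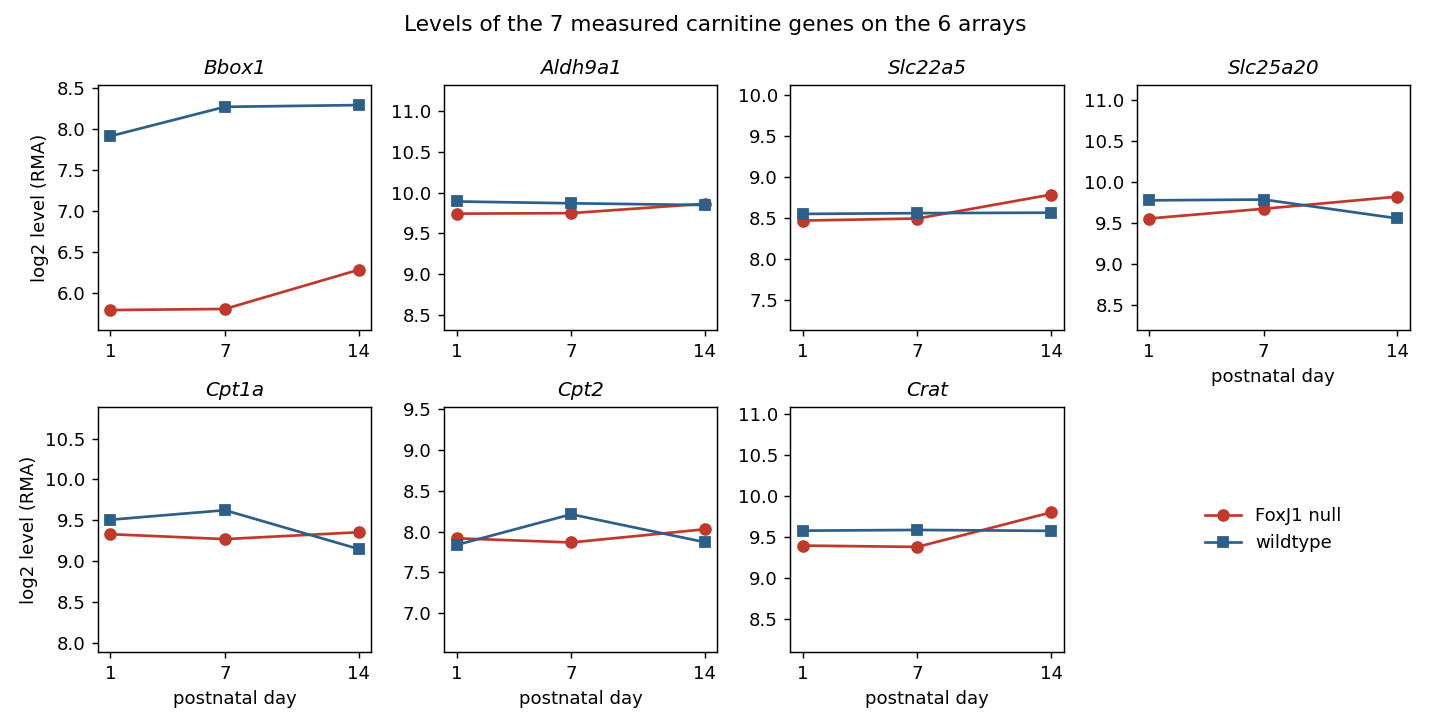
Log2 level (RMA, vertical axis) against postnatal day (horizontal axis) for the 7 measured carnitine genes, with 1 point per array, red circles for FoxJ1 null and blue squares for wildtype. Every panel spans 3 log2 units. Bbox1 has null levels of 5.79 to 6.28 and wildtype levels of 7.91 to 8.29, and in the other panels the genotypes overlap.

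None of the other 6 measured genes passed the test between the genotypes. Of these 6, 0 were called by limma (adjusted p under 0.05, Benjamini-Hochberg over all 19938 genes), where 0.672% of all genes were called, 1 higher and 133 lower, and 0 of the 6 reached an unadjusted p under 0.05. Their mean differences ran from -0.11 to 0.02, with a median of -0.04, against -0.01 over all genes. The 95% intervals reached at most 0.39 below 0 (Cpt1a, -0.39 to 0.17) and 0.27 above it (Slc22a5, -0.22 to 0.27), so each interval leaves out a decrease of more than 1.31-fold or a rise of more than 1.2-fold. Null and wildtype arrays overlapped for all 6, whereas they did not overlap for 6.15% of all genes.

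Aldh9a1, the dehydrogenase one step ahead of Bbox1, had log2 levels of 9.74, 9.75 and 9.86 in the null, by age, and 9.89, 9.87 and 9.85 in wildtype. Its mean difference was -0.08 ± 0.09 (SD, limma adjusted p = 1.00). The null arrays were the lower at days 1 and 7, and at day 14 the genotypes differed by 0.02.

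The uptake gene Slc22a5 had levels of 8.47, 8.49 and 8.78 in the null and 8.55, 8.56 and 8.56 in wildtype. The wildtype arrays lay within 0.02 of each other, and the null array of day 14 was the highest of the 6. The mean difference was 0.02 ± 0.17 (SD, limma adjusted p = 1.00). Slc22a5 has close relatives among the carnitine and cation transporters, Slc22a4 and Slc22a21, and how far their probes take up each other's RNA was not tested.

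In the shuttle, Cpt1a had levels of 9.33, 9.27 and 9.35 in the null and 9.51, 9.62 and 9.15 in wildtype, a mean difference of -0.11 ± 0.29 (SD, limma adjusted p = 1.00). The null arrays were nearly level, and it was the wildtype arrays that spread, with day 14 the lowest. Cpt2 had levels of 7.92, 7.87 and 8.03 in the null and 7.84, 8.21 and 7.87 in wildtype (-0.04 ± 0.27, adjusted p = 1.00). Its wildtype day 7 array stood above the other 5.

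The carrier Slc25a20 had levels of 9.55, 9.67 and 9.82 in the null and 9.78, 9.79 and 9.56 in wildtype (-0.02 ± 0.26, adjusted p = 1.00). Day 14 was the highest null array and the lowest wildtype array. Crat, the carnitine acetyltransferase, had levels of 9.39, 9.38 and 9.80 in the null and 9.58, 9.59 and 9.57 in wildtype (-0.05 ± 0.24, adjusted p = 1.00). Its wildtype levels were flat, within 0.01, while the null array of day 14 stood 0.42 above that of day 7.

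**Figure D2:**
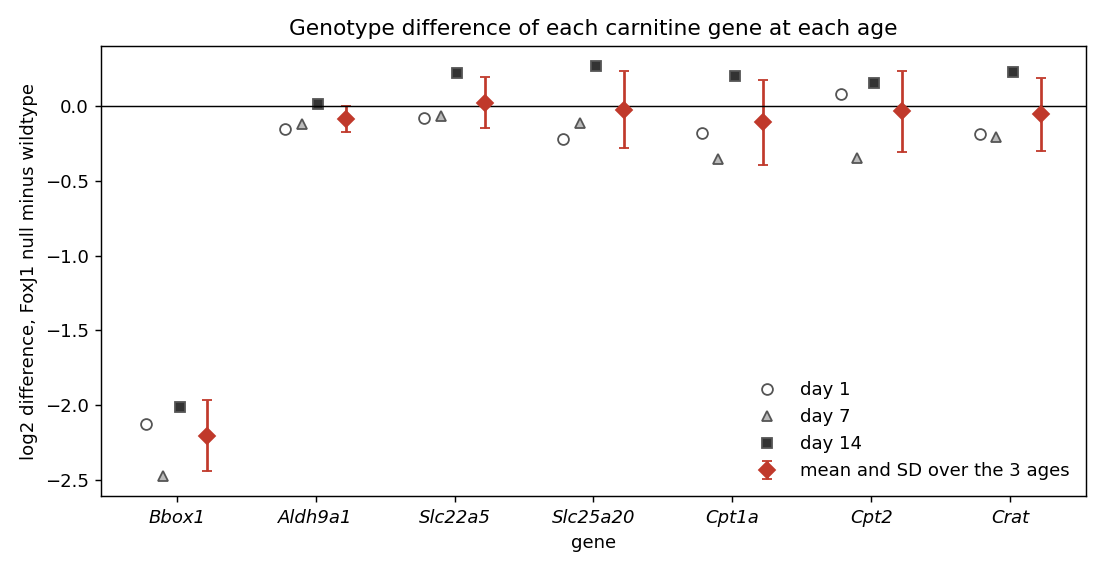
Log2 difference, FoxJ1 null minus wildtype (vertical axis), of each carnitine gene (horizontal axis) at day 1 (open circles), day 7 (grey triangles) and day 14 (dark squares), with the mean and SD over the 3 ages as red diamonds with bars. Bbox1 lies between -2.47 and -2.01, and the other genes between -0.35 and 0.27.

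The side on which the null lay changed with age for most of the 6 genes. Their null levels were lower than wildtype for 5 of 6 at day 1 (median -0.16) and for 6 of 6 at day 7 (median -0.16), and higher for 6 of 6 at day 14 (median 0.21). Among all genes the null was lower for 44.5% at day 1 and 63.4% at day 7, and higher for 44.6% at day 14, with medians of 0.03, -0.06 and -0.02. The sequence lower, lower, higher was met by 5 of the 6 genes and by 11.3% of all genes, and Cpt2 was the exception, at 0.08 on day 1. With each array centred on its median, 5 of 6 were higher at day 14, since Aldh9a1 turned to -0.003, and after a further quantile normalization Slc22a5 turned to 0.01 at day 7. Each age compares 1 array with 1 array, so these counts have no replicate and no test. At days 1 and 7 the pair also differed in Xist, which was high in wildtype at day 1 and in the null at day 7. At day 14 neither array had high Xist. The part of this difference in the signs was not tested. Marker lists of other cell types also had higher medians at day 14 than before: at days 1, 7 and 14 the median difference was -0.43, -0.45 and 0.44 for meningeal markers, -0.50, -0.08 and 0.20 for endothelial markers, -0.18, -0.32 and 0.07 for astrocyte markers and -0.07, 0.01 and 0.67 for microglia markers. Neuron and oligodendrocyte medians were below 0 at all 3 ages. Their part in the levels of the carnitine genes was not tested.

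Whether genotypes differed in their course over age was tested by the difference between the slopes of level on postnatal day, expressed over the 13 days from day 1 to day 14. The slope was more positive in the null than in wildtype for 7 of 7 genes, where it was so for 42.7% of all genes. A gene with the sequence lower, lower, higher has a positive slope difference by construction. For such genes this count repeats the signs above and is no separate observation. The 7 differences ran from 0.10 (Cpt2) to 0.49 (Slc25a20), with standard errors of 0.26 to 0.33. None passed, and with these errors the test could not show differences of this size: the interval of Slc25a20, the largest, ran from -0.11 to 1.10. Leaving out a day 14 array turned the value below 0 for Bbox1 and Cpt2 (either array, to -0.34 and -0.70 at the lowest), Crat (null, -0.03) and Cpt1a (wildtype, -0.22). By limma 0 of 7 were called, with 0.0% of all genes called (0 of 19938, and 596 at an unadjusted p under 0.05). Slc25a20 had 0.49 ± 0.27 (SE, unadjusted p = 0.098), Crat 0.42 ± 0.28, Cpt1a 0.40 ± 0.30 and Slc22a5 0.31 ± 0.27, each with adjusted p = 1.00. For Bbox1 the value was 0.13 ± 0.30 (adjusted p = 1.00), with an interval of -0.55 to 0.81.

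Over age alone, no carnitine gene passed. Between days 14 and 1, limma called 0 of 7, with 1 at an unadjusted p under 0.05, where 13.8% of all genes were called. That gene was Bbox1, at 0.44 ± 0.14 (SE, adjusted p = 0.0758), which was higher at day 14 by 0.49 in the null and by 0.38 in wildtype. From day 1 to day 7 Bbox1 differed by 0.01 in the null and 0.36 in wildtype, and from day 7 to day 14 by 0.48 in the null and 0.02 in wildtype, each from single arrays. Without either of the day 7 arrays the same value of 0.44 passed (adjusted p = 0.0416). Crat had 0.20 ± 0.14 (adjusted p = 0.431), Slc22a5 0.17 ± 0.13 (adjusted p = 0.492) and Cpt1a -0.17 ± 0.15 (adjusted p = 0.557). Between days 7 and 1 the 7 genes had differences of -0.01 to 0.19, and 0 were called (adjusted p from 0.655 to 0.994), where 0.0602% of all genes were called.

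**Figure D3:**
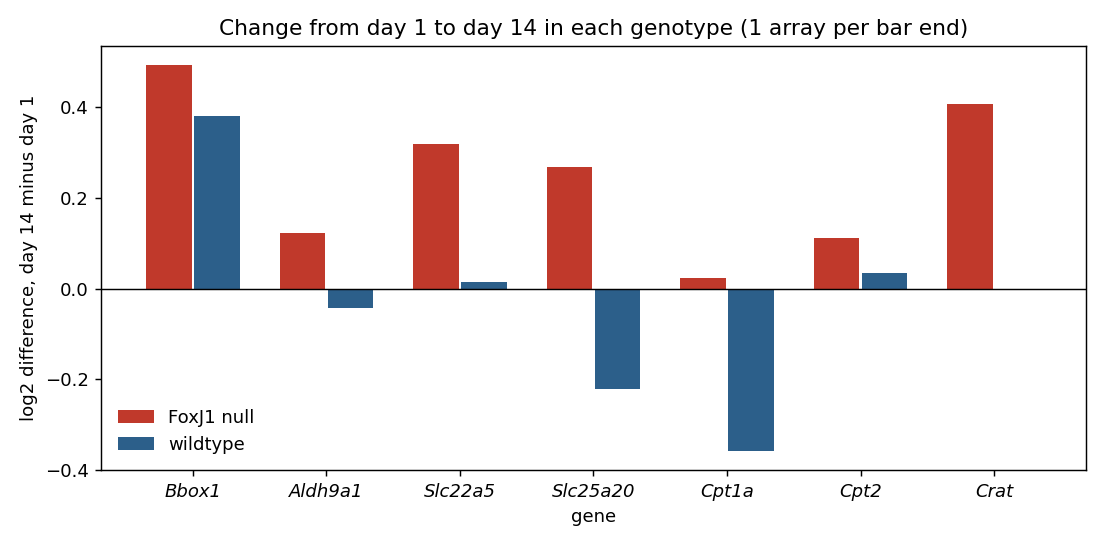
Log2 difference between days 14 and 1 (vertical axis) of each carnitine gene (horizontal axis), with red bars for FoxJ1 null and blue bars for wildtype, each bar the difference of 2 arrays. Bbox1 is higher at day 14 in both genotypes, Crat reads 0.41 in the null and -0.003 in wildtype (too small to see), and Slc25a20 and Cpt1a are above 0 in the null and below 0 in wildtype.

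Genes like Bbox1 over the 6 arrays were sought among 940 genes. These had a mean level above the median of all genes and a range of at least 1 log2 unit. Bbox1 itself lay below that median, and genes below it were not ranked, cilium genes such as Dnah12 included. The highest Pearson r with Bbox1 was that of Cfap43, Cfap65, Cfap44, Cfap52, 1700007K13Rik and Tm4sf1. It was 0.98 for Cfap43 and Cfap65 and 0.96 for the others. The Cfap genes encode cilia and flagella associated proteins and Tm4sf1 a small membrane protein. These r values describe 6 arrays that fall into 2 genotypes, and for Bbox1 that difference was the ground of its choice. Of the carnitine genes Aldh9a1 had the highest r with Bbox1, 0.78, and the others lay between 0.03 (Slc22a5) and 0.33 (Crat). Foxj1 itself had 0.86, with levels of 6.89, 6.95 and 6.90 in the null and 7.68, 7.72 and 7.24 in wildtype. Its mean difference of -0.63 ± 0.25 (SD) missed the threshold (limma adjusted p = 0.0573). The sources used here do not give the change in the null allele, or where the probe set lies relative to it.

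**Figure D4:**
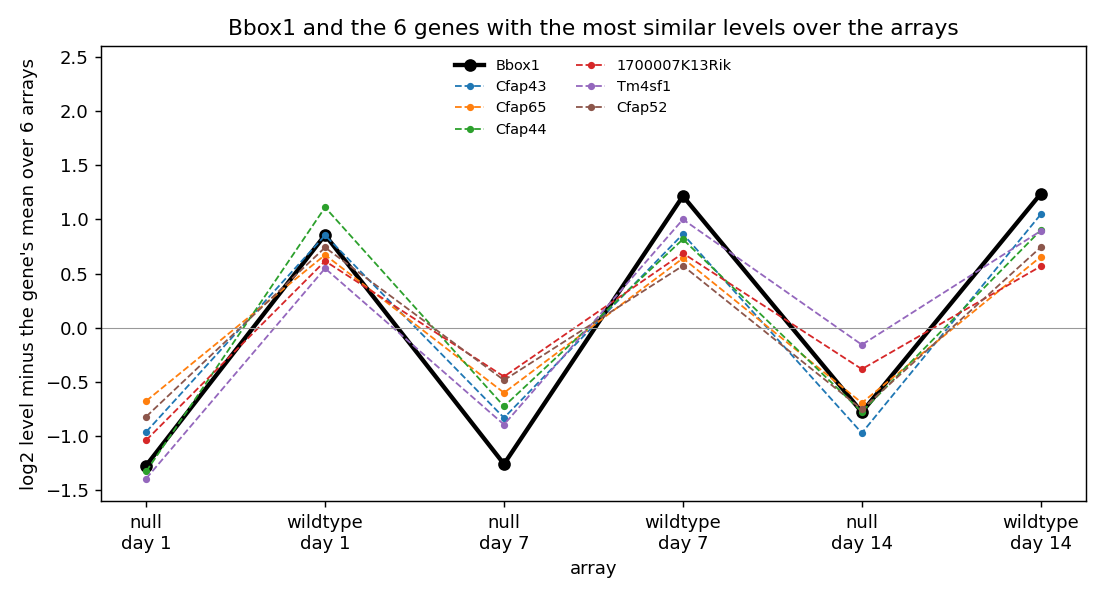
Log2 level of Bbox1 (black line) and of the 6 genes with the highest r among the 940 genes ranked (dashed lines). Each is shown minus its own mean over the 6 arrays (vertical axis). The 6 arrays are ordered by age with FoxJ1 null left of wildtype (horizontal axis). All 7 genes are below their mean on the 3 null arrays and above it on the 3 wildtype arrays.

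Markers of the captured cells differed between the genotypes beside Bbox1. The marker lists were chosen with earlier results of these data known. Over all genes 0.672% were called, 133 of 19938 lower, and 54.8% had a negative difference. Of 15 motile cilium genes, Foxj1 among them, 12 were called lower and all 15 had a negative difference (median -1.52). Their summed intensity was 1730 to 1990 on the null arrays and 4970 to 5170 on the wildtype arrays. Dnah12, an axonemal dynein, had -2.26 ± 0.09 (SD). Choroid plexus markers, which stand for the secretory epithelium inside the ventricles, had 3 of 9 called lower and 9 of 9 negative (median -0.75), with a summed intensity of 9830 to 11800 in the null and 24800 to 25400 in wildtype. Ttr, their brightest gene, had -1.31 ± 0.19 (SD), so this material was present on every array, with log2 means of 13.05 in the null and 14.36 in wildtype. Ttr made up most of that sum, and the other 8 genes summed to 1940, 3350 and 2320 in the null by age and 4490, 3790 and 4270 in wildtype. The list's median difference was -0.93, -0.20 and -0.86 at days 1, 7 and 14. Astrocyte markers had 0 of 10 called and 7 negative (median -0.17), with sums of 15200 to 28800 in the null and 18500 to 30800 in wildtype. Ependymal surface genes had 1 of 8 called, Dnali1 (-1.59 ± 0.19), which is also an axonemal dynein gene, while 7 of the 8 were negative with a median of -0.27, and Vim was the 1 positive gene (0.01 ± 0.54). Pltp had -0.56 ± 0.51 and Rarres2 -0.47 ± 0.07. Neuron, oligodendrocyte, microglia, meningeal and endothelial markers had 0 called, with list medians between -0.28 and 0.21. Neuron markers had the highest sums of all the marker lists, 37300 to 45300 in the null and 47200 to 50800 in wildtype. Of their 10 genes 9 were negative and 1 positive (median -0.28). The part of these cell types in the level of Bbox1 was not tested, and in captured tissue fewer cells of a type and less RNA per cell cannot be told apart.

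Around the carnitine genes, 71 further genes of fatty acid oxidation and related functions were measured in 7 lists. The lists also cover fatty acid binding, ketone bodies, and ascorbate and iron supply. None passed the test between the genotypes: limma called 0 of 71, where 0.672% of all genes were called. An unadjusted p under 0.05 was reached by 6 of the 71, 8.45% against 5.92% of all genes. The difference was negative for 53 and positive for 18, where 54.8% of all genes were negative, and the median was -0.06. With either day 7 array left out Rxrg was called (0.82), and with either day 14 array left out Fabp7 was (-0.93). The other carnitine transport and acyltransferase genes had 3 of 7 negative (median 0.03). Slc22a21, a carnitine transporter of the Slc22a5 family, read 7.74, 7.61 and 7.76 in the null and 7.32, 7.19 and 7.62 in wildtype (0.32 ± 0.16, SD, adjusted p = 0.546). Cpt1c, the neuronal relative of Cpt1a, had -0.27 ± 0.34 (adjusted p = 0.931), with -0.66 at day 1.

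Mitochondrial beta-oxidation had 13 of 16 genes negative (median -0.11), with medians of -0.23 at day 1, -0.12 at day 7 and 0.11 at day 14. Acadm, the medium-chain acyl-CoA dehydrogenase, had -0.31 ± 0.36 (SD, adjusted p = 0.838) and Etfa, an electron transfer flavoprotein subunit, -0.26 ± 0.36 (adjusted p = 0.944). Peroxisomal beta-oxidation had 10 of 12 negative (median -0.05), with the oxidase gene Acox2 at -0.24, and ketone body metabolism 4 of 4 (median -0.10), where Oxct1, which activates acetoacetate, had -0.40 ± 0.26 (adjusted p = 0.407). In fatty acid activation and binding, with 10 of 13 negative (median -0.06), the radial glia fatty acid binding gene Fabp7 read 11.93, 12.53 and 12.03 in the null and 13.16, 13.17 and 12.23 in wildtype (-0.69 ± 0.52, adjusted p = 0.205). Regulators of fatty acid oxidation had 7 of 13 negative (median -0.01), and the retinoid X receptor gene Rxrg had 0.44 ± 0.66 (adjusted p = 0.873). Genes that supply ascorbate and iron, the cofactors of dioxygenases such as that of Bbox1, had 6 of 6 negative (median -0.13). The ferritin gene Fth1 had -0.24 ± 0.32 (adjusted p = 0.974) and the transferrin receptor gene Tfrc -0.21 ± 0.13 (adjusted p = 0.902).

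**Figure D5:**
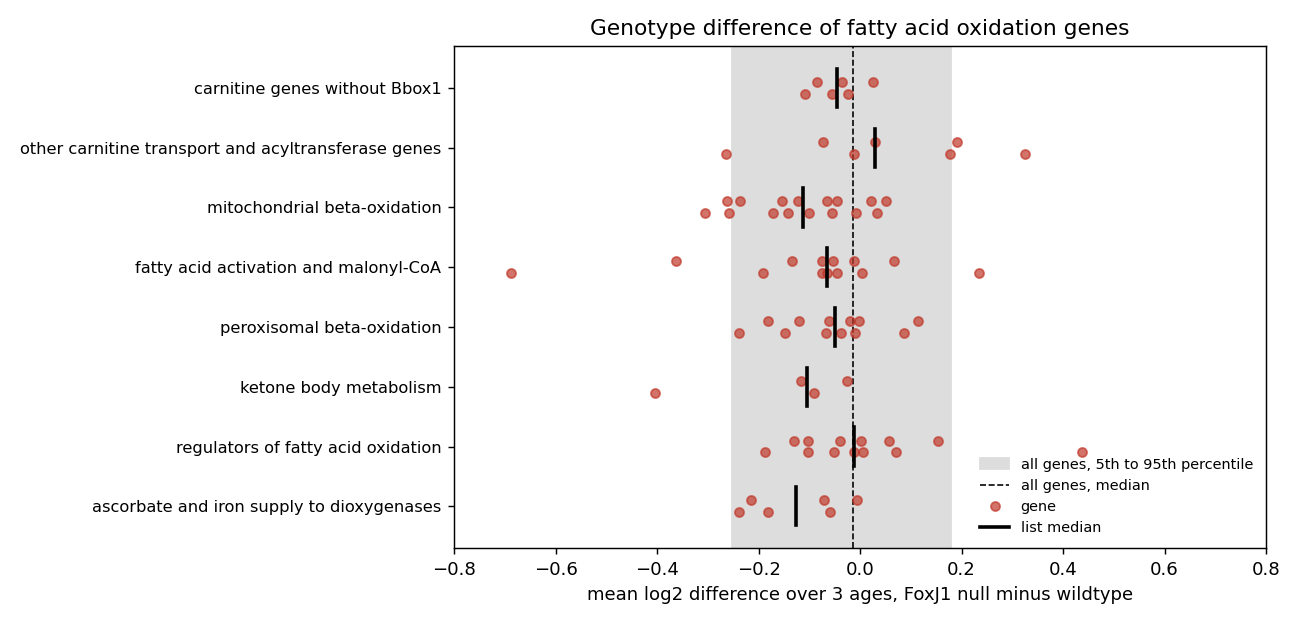
Mean log2 difference over 3 ages, FoxJ1 null minus wildtype (horizontal axis), for each gene (points) of the carnitine genes without Bbox1 and of 7 lists of fatty acid oxidation and related functions (rows), with list medians as black bars. The grey band spans the 5th to 95th percentile of all genes, -0.25 to 0.18, and the dashed line is their median, -0.01. Of 71 pathway genes 60 lie in the band, and Fabp7 (-0.69), Oxct1 (-0.40) and Rxrg (0.44) lie outside it.

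Over age, some genes of these lists passed and most did not. Between days 14 and 1, 11 of the 71 genes were called higher and 4 lower, 21.1% against 13.8% of all genes, and the count of higher genes was 3 without the null day 14 array. The share over all genes includes dim genes, and the gap narrowed without them. With the lowest tertile left out, 13 of 64 were called higher and 3 lower, where 2891 of 13292 genes were called. With genes below the median left out, the counts were 13 and 3 of 54, where 2657 of 9969 genes were called. Among carnitine genes outside the 8, Slc22a4, a close relative of Slc22a5, rose by 0.75 ± 0.14 (SE, limma adjusted p = 0.00686) and Cpt1c by 0.77 ± 0.16 (adjusted p = 0.0134). Hadhb, a subunit of the mitochondrial trifunctional protein, was the 1 of 16 mitochondrial genes called (0.72 ± 0.13, adjusted p = 0.00631), and Abcd2, a peroxisomal fatty acid importer, the 1 of 12 peroxisomal genes (0.83 ± 0.13, adjusted p = 0.00292). Acsbg1, an acyl-CoA synthetase found in astrocytes, rose by 1.20 ± 0.14 (adjusted p = 0.000892) and Acsl6 by 0.58 ± 0.12 (adjusted p = 0.0134). Acaca, which makes malonyl-CoA, the inhibitor of Cpt1a, fell by 0.68 ± 0.13 (adjusted p = 0.00702), and Fabp5 fell by 0.66 ± 0.13 (adjusted p = 0.00971).

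Both called genes of ketone metabolism rose with age, the monocarboxylate transporter gene Slc16a1 by 0.73 ± 0.15 (SE, adjusted p = 0.0106) and Oxct1 by 0.57 ± 0.15 (adjusted p = 0.0316). Of the regulators 3 of 13 rose. Pparg, a nuclear receptor for fatty acids, rose by 0.90 ± 0.14 (adjusted p = 0.0028), and the coactivator genes Ppargc1b by 0.70 ± 0.12 (adjusted p = 0.00609) and Ppargc1a by 0.58 ± 0.14 (adjusted p = 0.0267). The ferritin light chain gene Ftl1 fell by 0.83 ± 0.14 (adjusted p = 0.00409). With age as a linear term and the pair of high-Xist arrays left out, Oxct1, Ppargc1a and Fabp5 no longer passed (adjusted p = 0.106, 0.172 and 0.0733). Over the same interval astrocyte markers had 7 of 10 called higher and 2 lower (median 0.99) and oligodendrocyte markers 6 of 9 higher (median 2.98), and their part in these changes was not tested.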

How the data were processed

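The authors deposited log2 levels of 35557 probe sets on 6 arrays. Per the submitters' processing notes they used RMA; its software and version, and the genome build, are not given in the sources used here. Their second deposited table holds linear intensity for 52 probe sets, whose log2 matched the first table within 4.86e-06. The platform's probe table gave 1 gene symbol for 21789 probe sets, several for 1621 and none for 12147. The brightest probe set of each gene by mean level was kept, which left 19938 genes, with no filter on dim genes. The sorted levels of the arrays nearly coincided (median deviation 0.0216), and no further normalization was applied.

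The genotype and age comparisons came from 1 limma 3.58.1 fit in R 4.3.3 (lmFit and eBayes) with terms for genotype and for age (3 levels), 2 residual and 7.51 prior degrees of freedom, and the slopes from genotype, postnatal day and their product. Tests are 2-sided, adjusted by Benjamini-Hochberg over all genes, with a threshold of 0.05. Age pairs the arrays. The number of arrays limits the precision. Promoter windows came from RefSeq's GRCm38.p6 table. The code was tested on simulated data, in which 200 of 19938 genes were changed by 1 log2 unit. False calls were 20 of 220 for genotype, 32 of 232 between days 14 and 1, 38 of 238 between days 7 and 1, and 12 of 56 for the slopes. At this size each is a larger share than the threshold of 0.05. Of the changed genes, 100% were recovered for genotype and for both age comparisons, and 22% for the slopes. With changes of 0.5 log2 units recovery was 50% for genotype and 36.5% between days 14 and 1. It was then 28% between days 7 and 1 and 0% for the slopes, so small differences could be missed. Tables and figures used Python 3.11.15, pandas 2.3.3 and matplotlib 3.10.9.

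The carnitine genes, the 7 pathway lists (78 symbols, 71 measured) and the 10 marker lists (88 symbols, 85 measured) were chosen with earlier results of these data known. Besides the 8 carnitine genes, each pathway list gave the 2 with the largest absolute genotype difference. It also gave up to 4 called genes per comparison. Each marker list gave genes with a large difference or the highest level. The 6 genes most like Bbox1, among those above the median level, were also named. Vim was named after its values were seen.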

Additional observations from a re-analysis of the deposited data

How the results depend on the processing

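The mean difference of Bbox1 between the genotypes lay between -2.30 and -2.07 in 16 alternatives, which covered scaling, probe sets, the prior, the age term, leaving out each array and the arrays with high Xist. Part of this narrow range was fixed by the design. The choice of probe sets, of the prior and of the age term on all arrays could not move the value from -2.20. Since age pairs the arrays, leaving out either array of an age gave the same value. Both filters on dim genes, which left out the lowest tertile or the genes below the median, removed Bbox1 itself, and the stricter one also Cpt2. For the other 6 genes, 0 were called between the genotypes in 18 alternatives, and the sign of a mean difference turned in 2 of 18 for Slc22a5 and Cpt1a, 6 for Slc25a20, 5 for Crat and 3 of 17 for Cpt2. These counts include settings that could not move a mean difference, namely the filters, prior, probe sets and age term on all arrays. The 2 turns of Slc22a5 (-0.07, either day 14 array left out) are the same value counted for both arrays. So are the 2 of Cpt1a (0.01, either day 7 array left out). Between days 14 and 1 the number of carnitine genes called was 0 to 1 when single arrays were left out. The 1 was Bbox1, whose difference ran from 0.29 to 0.58 and whose adjusted p ran from 0.0416 to 0.834 over 14 alternatives. Between days 7 and 1, and for the slopes, 0 carnitine genes were called in the 14 alternatives of each, and the slope difference of Bbox1 turned below 0 in 3 of its 12, to -0.34 without the null day 14 array, -0.27 without the wildtype day 14 array and -0.01 on log2 of postnatal day. The slope difference also turned in 3 of 13 for Cpt2 (-0.70 to 0.75) and in 1 of 14 for Cpt1a (-0.22) and Crat (-0.03).

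Over all genes, the 134 genotype calls became 16 with genes below the median left out, 61 without the lowest tertile, 58 of 35557 with each probe set on its own, 45 with age left out and 66 without the high-Xist arrays. The 2751 calls between days 14 and 1 became 1739 without the null day 1 array and 1344 without the null day 14 array, and the 12 between days 7 and 1 became 456 without the wildtype day 1 array, 188 without either day 14 array and 0 without the wildtype day 7 array. The 0 slope calls became 9, 3 and 1 without the null arrays of days 14, 1 and 7. The causes were not tested. With each array centred on its median, 46.5% of the calls between days 14 and 1 were higher, against 54.4% as deposited. The replicate numbers here only name arrays, and age already pairs them in the fit. Each genotype and age has 1 array, and without detection calls the signal of Bbox1 over background in the null is unknown.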
